A study of Mus musculus with 10 samples.

Results

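Skeletal muscle transcripts are abundant in pieces of mouse cheek skin, and 44 genes of the contractile apparatus and calcium handling of skeletal muscle were described here out of 18994 genes in the deposited table. The genes were taken by symbol from a list of names, and all 44 were in the table. They comprised 11 genes typical of slow fibres, 15 typical of fast fibres, 4 of developing fibres and 14 used by all fibres. A filter on low counts kept 42 of them for testing, and left out Myh7 and Myl3, a slow myosin heavy chain and a slow light chain gene with 30 and 39 counts over all 10 libraries.

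The samples were pieces of cheek skin from C57BL/6 mice of 6 to 8 weeks, shaved on the cheek 3 days earlier and injected into the dermis of the right cheek with 5 µL of fluid. In 5 mice the fluid carried 1 µg of MMP9, matrix metalloproteinase 9, which cleaves gelatin and other matrix proteins, and in the other 5 mice it was vehicle alone. Tissue was taken 4 h after the injection, and 1 library of polyadenylated RNA was made from each mouse. Shaving and the needle were common to both groups, no mutant allele or transgene is labelled, and neither the sex of the mice nor the make-up of the vehicle is given in the sources used here.

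In skeletal muscle an action potential is sensed by a voltage sensor (Cacna1s), which opens the calcium release channel of the sarcoplasmic reticulum (Ryr1). Calcium held there on calsequestrin then binds troponin C, tropomyosin moves on the actin filament, and myosin heads pull on actin until a calcium pump (Atp2a1) refills the store. Many of these proteins are encoded by sets of paralogs, used in slow, fast or developing fibres, so their transcripts report on fibre composition. Mouse skin carries a thin sheet of muscle, the panniculus carnosus, and the cheek also holds facial muscles, both known to be built mainly of fast fibres.

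Library totals lay between 17121595 and 19443136 estimated counts. MMP9 mouse 4 stood apart from the others: its 84 ribosomal protein genes took 13.2% of counts, against 6.74% to 7.61% in the other 9 libraries, and its TMM factor was 0.843, against 0.993 to 1.05. Its median TPM over tested genes was 8.745, against 13.46 to 14.68 in the other 9. TPM values of that mouse are thus not level with those of other mice, and the MMP9 means in TPM include it. Keratinocyte markers were abundant in every library, at a summed 16540.0 to 26420.0 TPM over 10 genes, so the tissue held epidermis as labelled. Hair follicle keratins and partners, a list that mixes hair shaft and inner root sheath genes, summed to 13.9 TPM in vehicle mouse 2. The sum was 18.3 TPM in MMP9 mouse 1, against as much as 5237 TPM elsewhere. Both of these mice were also among those with low muscle gene levels, but so was vehicle mouse 5. Of 29 fast and shared genes, 12 were lowest in vehicle mouse 5, 6 in vehicle mouse 2 and 7 in MMP9 mouse 1. The hair follicle sum of vehicle mouse 5 was 2511.5 CPM, counts per fixed library total. The sums of vehicle mouse 2 and MMP9 mouse 1 were 16.9 and 19.8 CPM. The part of tissue composition in the muscle values was not tested.

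After MMP9, 0 of the 42 tested members passed edgeR's quasi-likelihood test at a Benjamini-Hochberg adjusted p of 0.05, against a background of 0% of all 15250 tested genes. Every tested member had an adjusted p of 0.981 or above. At an unadjusted p under 0.05 there was 1 member higher in MMP9, Myh8, against a background of 2.07% of tested genes, and 0 lower, against 1.12% (3.19% in either direction). DESeq2 called 0 members, against 0.00528% of all genes, and limma-voom 0, against 0%. The log2 fold changes were above 0 in 22 members and below it in 20, with a median of 0.005, against a median of 0.013 and 53.7% above 0 over all genes tested. In 0 of 42 members did the groups fail to overlap, where the background was 0.564%. Of 42 members, 31 had a 95% interval that stayed within 1 of 0 on the log2 scale, against 90.2% of all genes, so that for the other 11 a 2-fold difference lay within the interval.

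By class, the median log2 fold change was 0.28 over 9 tested slow genes, of which 7 were above 0, and 0.43 over 4 developmental genes, of which 3 were above 0. It was 0.02 over 15 fast genes and -0.13 over 14 shared genes. These class medians are descriptions with no test, and the single fold changes behind them had a median standard error of 0.34 in slow and 0.42 in developmental genes. Most tested slow genes have transcripts under 1500 bases, and short transcripts were high in MMP9 mouse 4, as described below. Class was not separated from transcript length.

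Transcripts of the myosin heavy chains, the motor proteins of the thick filament, were mainly those of fast fibres. On the TPM scale, which is per transcript length, Myh4, the heavy chain of the fastest fibres (type IIB), made up 63.5% ± 5.30 of the summed TPM of 6 heavy chain genes in vehicle and 63.7% ± 3.73 in MMP9 (SD, n = 5). Myh1, the type IIX chain, made up 31.1% ± 4.97 and 30.4% ± 3.63. Myh2, the type IIA chain of fast oxidative fibres, held 4.76% ± 0.520 and 4.96% ± 0.680. The embryonic chain Myh3 held 0.350% ± 0.315 and 0.390% ± 0.182, and the neonatal chain Myh8 0.308% ± 0.212 and 0.548% ± 0.247. Myh7, the chain of slow fibres, held 0.00496% ± 0.00581 and 0.00679% ± 0.00488, from TPM values deposited to 2 decimals.

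**Figure D1:**
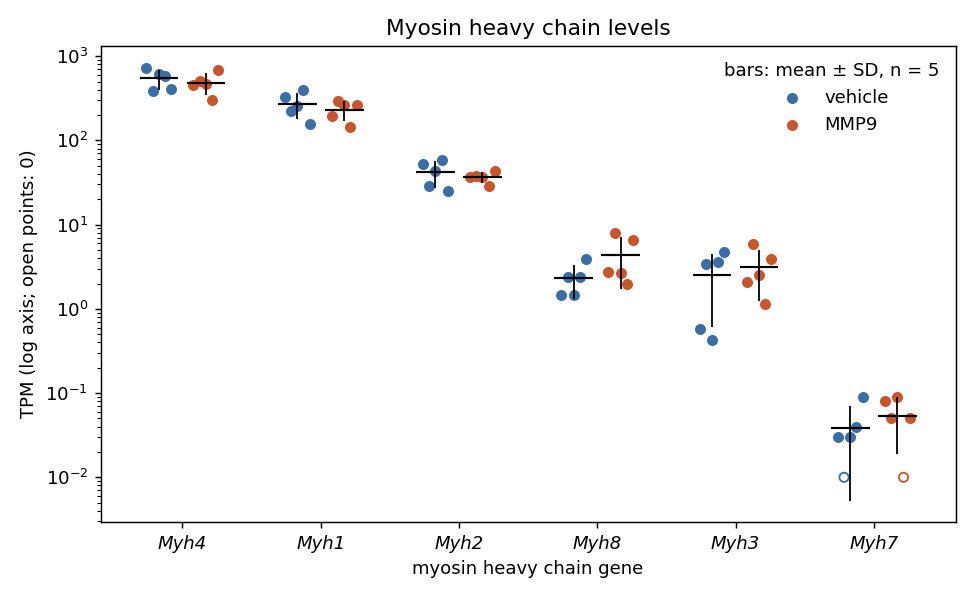
Level of 6 myosin heavy chain genes in TPM on a log axis, with 1 point per mouse, black bars at the group mean ± SD of 5 vehicle and 5 MMP9 mice, and open points for values of 0, drawn at a fixed height. Myh4 lies between 302.4 and 732.8 TPM and Myh7 between 0 and 0.09 TPM, and the groups overlap in every gene.

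Single mice differed more than the groups. Levels compared between mice are given as CPM, counts per fixed library total, scaled by TMM factors. Myh4 stood at 2701, 1382, 2244, 2175 and 1449 CPM in vehicle mice 1 to 5, and at 1539, 1735, 1622, 1651 and 2522 CPM in MMP9 mice 1 to 5. Vehicle mouse 1 and MMP9 mouse 5 were the highest, vehicle mice 2 and 5 the lowest, and the groups overlapped. Its log2 fold change was -0.13 (standard error 0.22).

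Myh1 was measured at 1191, 814, 929, 1445 and 545 CPM in the vehicle mice, and at 647, 996, 899.9, 778 and 954 CPM in the MMP9 mice. For Myh2 the vehicle values were 198, 106, 157, 218 and 89.6 CPM, and the MMP9 values 123, 131, 127, 158 and 161 CPM. In both genes vehicle mouse 4 was highest and vehicle mouse 5 lowest of all 10, with the MMP9 mice between them.

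The slow chain Myh7 was at 0.114, 0, 0.110, 0.165 and 0.301 CPM in vehicle mice and at 0.259, 0.152, 0.300, 0 and 0.164 CPM in MMP9 mice. Vehicle mouse 2 and MMP9 mouse 4 had no count, which allows up to 3 counts, and 3 counts correspond to 0.15 to 0.208 CPM depending on the library. No library had more than 6 counts, so a difference between the groups was not detectable at this depth. Such limits cover counting error only.

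The 2 developmental chains were low and uneven. Myh3 was at 2.10, 12.2, 1.59, 13.2 and 16.4 CPM in vehicle mice and at 6.84, 20.3, 8.54, 6.24 and 14.2 CPM in MMP9 mice. The values of vehicle mice 1 and 3 were far below all others, MMP9 mouse 2 was highest, and the groups overlapped. Myh8 was at 5.56, 8.68, 5.38, 9.08 and 14.03 CPM in vehicle mice and at 9.43, 27.8, 9.39, 10.8 and 24.4 CPM in MMP9 mice. MMP9 mice 2 and 5 stood above the other 8, vehicle mice 1 and 3 were again lowest, and vehicle mouse 5 lay above 3 MMP9 mice. Group means of Myh8 were 8.55 ± 3.51 and 16.4 ± 8.98 CPM in vehicle and MMP9 (SD, n = 5). The log2 fold change of 0.94 (standard error 0.38, 95% interval 0.10 to 1.77) had an edgeR adjusted p of 0.981. Without MMP9 mouse 2 the log2 fold change was 0.66 (edgeR adjusted p = 0.935).

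Myosin heavy chain genes are alike in sequence, so counts split among them are uncertain. Myh1, Myh2, Myh3, Myh4 and Myh8 lie in a cluster on chromosome 11, and Myh7 lies on chromosome 14. In the reference transcripts, 26.7% of the 50-base stretches of Myh1, 26.9% of Myh2, 18.9% of Myh4, 21.4% of Myh8 and 22.2% of Myh7 also occur in a transcript of another gene, against 4.81% for Myh3. The gene sharing most with Myh7 was Myh6, which is not among the members, with 1373 of 6181 stretches. For Myl1 the share was 23.4%, from a pseudogene. Reads were 50 bases long, and how reads that fit several genes were handled is not given in the sources used here. Troponins, calsequestrins and Actc1 share no such stretch, and Acta1 shares 2.22% of its own.

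The promoters of Myh4 and Myh3 are shown because the abundant adult chain and the low developmental chain lie on the same chromosome and differed in their order over mice. Both are RefSeq sequences of build GRCm38.p6, 250 bases up to the base before the annotated start, written 5′ to 3′ along the gene's strand. Capitals mark the E-box CAGCTG bound by myogenic factors, the MEF2 motif, the CArG box bound by serum response factor, and TATAAA.
Myh4, chr11:67237562-67237811, plus strand: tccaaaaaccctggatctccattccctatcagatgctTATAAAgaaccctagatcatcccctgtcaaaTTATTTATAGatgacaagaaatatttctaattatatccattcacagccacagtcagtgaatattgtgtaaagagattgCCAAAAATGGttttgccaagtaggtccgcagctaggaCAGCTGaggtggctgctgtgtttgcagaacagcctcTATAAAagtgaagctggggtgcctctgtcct
Myh3, chr11:67078050-67078299, plus strand: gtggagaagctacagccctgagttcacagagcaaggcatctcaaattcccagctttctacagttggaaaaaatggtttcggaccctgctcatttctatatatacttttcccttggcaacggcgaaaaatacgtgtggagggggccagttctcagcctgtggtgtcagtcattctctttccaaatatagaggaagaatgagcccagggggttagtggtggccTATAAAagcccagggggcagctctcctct
The Myh4 window holds all 4 motifs, with TATAAA at -213 and -31, MEF2 at -182, CArG at -104 and the E-box at -67 from the start. In the Myh3 window only TATAAA was found, at -29. Of 44 members, 34 had a promoter in the RefSeq table. The E-box was found in 47.1% of them (14.7% of 27025 genes), MEF2 in 20.6% (3.42%), CArG in 17.6% (1.62%) and TATAAA in 14.7% (8.94%). TATAAA was searched on the gene's strand and the others on both strands. These matches describe letters in a window and do not show binding.

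The other thick filament genes gave the same picture of fast muscle. Mylpf and Myl1, the fast regulatory and essential light chains, had 4431 ± 1588 and 4512 ± 1532 TPM in vehicle and 4579 ± 1769.9 and 4584 ± 1939 TPM in MMP9 (SD, n = 5). Their slow counterparts Myl2 and Myl3 were at 8.22 ± 4.94 and 0.5 ± 0.538 TPM in vehicle and 5.55 ± 0.731 and 0.294 ± 0.229 TPM in MMP9. Myosin-binding protein C was the exception among the slow and fast pairs: the slow form Mybpc1 had 151 ± 42.2 TPM and the fast form Mybpc2 147 ± 38.1 TPM in vehicle, and both had 129 TPM in MMP9. Mylk2, the kinase of the fast regulatory light chain, had 60.004 ± 8.73 and 59.7 ± 16.4 TPM and the smallest range of any fast or shared gene over the 10 mice, 1.74-fold on the CPM scale.

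Mybph, which encodes myosin-binding protein H, was at 119.6, 57.3, 74.2, 155 and 75.5 CPM in vehicle mice and at 67.4, 81.6, 49.4, 59.1 and 96.0 CPM in MMP9 mice. Vehicle mice 4 and 1 were the highest of all and MMP9 mouse 3 the lowest, and the groups overlapped. The log2 fold change was -0.45 (standard error 0.27). Although grouped with the developmental genes, Mybph did not share the low values of Myh3 and Myh8 in vehicle mouse 1.

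In the thin filament, Acta1, the adult skeletal actin, ranked 2 among all genes by mean TPM. Acta1 was at 9310.4, 5537, 6984, 10353 and 4770.1 CPM in vehicle mice and at 4689.8, 6469.6, 5281, 8963 and 9048 CPM in MMP9 mice. Vehicle mice 1 and 4 and MMP9 mice 4 and 5 formed the upper values, vehicle mouse 5 and MMP9 mouse 1 the lowest, and the groups overlapped. The log2 fold change was -0.10 (standard error 0.27).

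Actc1, the actin of heart and of fetal skeletal muscle, was far lower, at 11.9, 21.0, 13.1, 34.7 and 33.2 CPM in vehicle mice and 17.6, 55.9, 14.1, 23.8 and 57.2 CPM in MMP9 mice. MMP9 mice 2 and 5 were highest, vehicle mice 1 and 3 lowest, and the groups overlapped. On the TPM scale Actc1 came to between 0.131% and 0.877% of Acta1. Vehicle mouse 1 was thus among the highest for the adult actin and the lowest for the fetal one.

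The troponin complex, which carries the calcium switch on the thin filament, was almost wholly of the fast type. In TPM, the fast subunits Tnnt3, Tnni2 and Tnnc2 had 4618 ± 1359.7, 2723 ± 852 and 3701 ± 1183 in vehicle and 4573 ± 1053, 2864 ± 755 and 3780.5 ± 944 in MMP9. The slow subunits Tnnt1, Tnni1 and Tnnc1 had 15.8 ± 5.39, 12.9 ± 8.18 and 7.66 ± 6.53 TPM in vehicle and 18.4 ± 7.11, 20.0 ± 11.03 and 16.9 ± 11.4 TPM in MMP9 (SD, n = 5). Tpm2, the beta tropomyosin, had 1857 ± 568 and 1813 ± 368 TPM.

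The slow troponin C gene Tnnc1, also the troponin C of the heart, had the widest range of any tested member. It was at 0.454, 3.71, 0.220, 5.83 and 5.31 CPM in vehicle mice and at 2.90, 13.8, 4.15, 6.86 and 7.82 CPM in MMP9 mice. Levels in vehicle mice 1 and 3 were near the level of a few counts, MMP9 mouse 2 was highest at 63.1 times vehicle mouse 3, and the groups overlapped. Its log2 fold change was the largest in size among members, 1.19, but the standard error was 0.72 and the 95% interval ran from -0.38 to 2.76.

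Its fast paralog Tnnc2 was at 1973, 934, 1474, 1884 and 987 CPM in vehicle mice and at 978, 1425, 1099, 2565 and 1953 CPM in MMP9 mice, a range of 2.75-fold. Vehicle mouse 1, nearly lowest for Tnnc1, was the second highest for Tnnc2. The slow inhibitory subunit Tnni1 followed Tnnc1, at 2.67, 8.03, 3.24, 13.9 and 12.3 CPM in vehicle mice and 6.74, 21.4, 8.69, 10.3 and 16.2 CPM in MMP9 mice. Again vehicle mice 1 and 3 were lowest and MMP9 mouse 2 highest. Its log2 fold change was 0.66 (standard error 0.47).

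**Figure D2:**
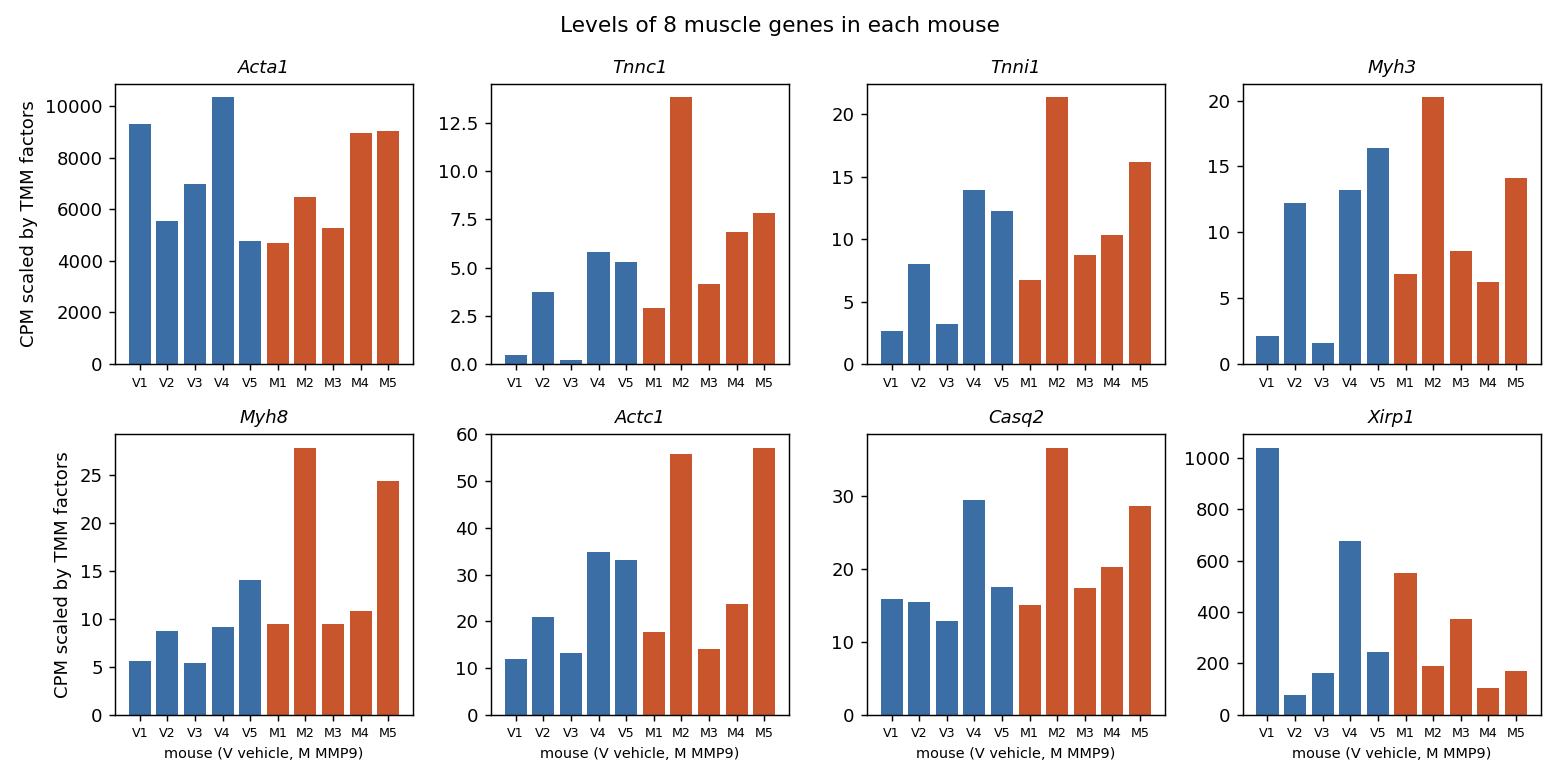
Level of 8 muscle genes in each mouse, in CPM scaled by TMM factors on a separate linear axis from 0 for each gene, with 1 bar per mouse (V for vehicle, M for MMP9). Tnnc1, Tnni1, Myh3, Myh8 and Actc1 are lowest in V1 and V3, where Acta1 stands at 9310.4 and 6984 CPM, and Xirp1 is highest in V1 at 1039.5 CPM.

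The promoters of Acta1 and Tnnc1 are shown as those of the most abundant and the most variable member, again as RefSeq GRCm38.p6 sequence with the same motifs in capitals.
Acta1, chr8:123894776-123895025, minus strand: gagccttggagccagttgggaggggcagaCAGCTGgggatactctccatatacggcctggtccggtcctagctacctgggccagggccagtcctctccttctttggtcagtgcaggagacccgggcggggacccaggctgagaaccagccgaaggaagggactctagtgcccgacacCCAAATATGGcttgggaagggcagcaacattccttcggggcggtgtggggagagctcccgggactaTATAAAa
Tnnc1, chr14:31208062-31208311, plus strand: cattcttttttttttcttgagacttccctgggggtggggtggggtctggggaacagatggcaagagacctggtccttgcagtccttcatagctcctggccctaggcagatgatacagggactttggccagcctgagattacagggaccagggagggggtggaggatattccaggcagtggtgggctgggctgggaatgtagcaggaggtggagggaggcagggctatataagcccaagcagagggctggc
The Acta1 window holds the E-box at -221, the CArG box at -73 and TATAAA at -7, and the Tnnc1 window holds 0 of the searched letters.

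Among structural genes of the Z disc, M band and elastic filaments, group means lay close together and no gene passed. The actin cross-linkers Actn2 and Actn3 had 158 ± 51.8 and 335 ± 92.9 TPM in vehicle and 139 ± 28.9 and 320.1 ± 81.0 TPM in MMP9 (SD, n = 5). Actn3 is the form restricted to fast fibres. Of the calsarcins, which tether calcineurin at the Z disc, the fast form Myoz1 had 393 ± 111 and 393 ± 84.4 TPM and the slow form Myoz2 49.2 ± 15.9 and 48.0 ± 14.5 TPM. The titin cap gene Tcap had 593 ± 264 and 687 ± 125 TPM, and the Z disc adaptor Ldb3 298 ± 74.7 and 268 ± 83.4 TPM. The giant filament genes Ttn and Neb, encoding titin and nebulin, gave log2 fold changes of -0.20 each, the M band genes Myom1 and Myom2 -0.07 and -0.15.

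Xirp1 was the exception in this group for its range. It encodes Xin, an actin-binding repeat protein of muscle attachment sites that is known to rise in damaged muscle. Xirp1 was at 1039.5, 76.1, 162, 675 and 244 CPM in vehicle mice and at 553, 189, 370.4, 103 and 169.6 CPM in MMP9 mice. Vehicle mice 1 and 4 and MMP9 mouse 1 were highest, vehicle mouse 2 and MMP9 mouse 4 lowest, and the groups overlapped. The highest value was 13.7 times the lowest, against 1.74 to 3.80 times for the other 28 fast and shared genes. The log2 fold change was -0.67 (standard error 0.67), -0.06 without vehicle mouse 1 and -1.08 without MMP9 mouse 1.

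MMP9 mouse 1, the highest of its group for Xirp1, was the lowest of all mice for Acta1. Of 30 tested genes on a list of further sarcomere genes, 6 shared with Xirp1 the highest vehicle value in mouse 1 and the highest MMP9 value in mouse 1, a pattern chosen after the values were seen and found in 3.43% of all tested genes. They were Flnc, Klhl40, Klhl41, Xirp2, Lmod2 and Nrap, genes of thin filament assembly, stability or attachment. Over all 80 tested genes on lists of further muscle and cardiac genes, these 6 were the only ones with the pattern (7.5%). Of the 42 tested members only Xirp1 had it (2.38%), so the share among members was not above the background. Flnc, a filamin that binds Xin, was at 914, 139, 267, 592 and 279 CPM in vehicle mice and at 480.2, 254, 341, 137 and 246 CPM in MMP9 mice. Its range was 6.68-fold and that of Klhl40, which stabilises thin filament proteins, 9.37-fold. Whether injury differed between the tissue pieces was not tested.

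For calcium handling, the release channel Ryr1 was at 330.5, 247, 280.4, 331 and 188 CPM in vehicle mice and at 222, 260.4, 256, 172 and 319 CPM in MMP9 mice. Vehicle mice 1 and 4 and MMP9 mouse 5 were highest, and MMP9 mouse 4 was lowest. The voltage sensor Cacna1s had group means of 147 ± 35.7 and 129.96 ± 22.4 CPM (SD, n = 5). Neither gene passed, with log2 fold changes of -0.16 and -0.17 and standard errors of 0.19 and 0.18.

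Atp2a1, the calcium pump of fast fibres, was at 5528, 3936, 4758, 5689 and 3097 CPM in vehicle mice and at 3254, 4256, 4110.4, 3932 and 5271 CPM in MMP9 mice. As for Acta1, vehicle mice 1 and 4 and MMP9 mouse 5 were high, but MMP9 mouse 4 was among the lower values for the pump. Sln, a small membrane protein that inhibits the pump, was at 4.82, 4.97, 4.499, 8.64 and 5.11 CPM in vehicle mice and at 3.52, 12.6, 3.15, 17.5 and 8.91 CPM in MMP9 mice. MMP9 mice 4 and 2 were highest, but MMP9 mice 1 and 3 lay below every vehicle mouse. The log2 fold change of Sln was 0.70 (standard error 0.44), and 0.32 without MMP9 mouse 4.

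Calsequestrin stores calcium in the reticulum, mostly as Casq1 in fast fibres and as Casq2 in slow fibres and heart. Casq1 was at 541, 354, 477, 614 and 333 CPM in vehicle mice and at 263, 434, 265, 459 and 646 CPM in MMP9 mice. Casq2 was at 15.9, 15.5, 12.8, 29.6 and 17.5 CPM in vehicle mice and at 15.03, 36.7, 17.4, 20.3 and 28.6 CPM in MMP9 mice. The groups overlapped in both genes, MMP9 mouse 5 being highest for Casq1 and MMP9 mouse 2 for Casq2. Pvalb, the soluble calcium buffer of fast fibres, was at 1763, 861, 1389, 1703 and 986 CPM in vehicle mice and at 867, 1283, 856, 2566 and 1953 CPM in MMP9 mice. Again vehicle mice 1 and 4 and MMP9 mice 4 and 5 were the upper 4.

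Among genes of energy and oxygen supply, Ckm, the muscle creatine kinase, was at 4002, 1978, 2896, 3627 and 1931 CPM in vehicle mice and at 1945, 2546, 2145, 3992 and 3729.9 CPM in MMP9 mice. Its log2 fold change was -0.01 (standard error 0.27). Mb, the oxygen-binding protein myoglobin, was at 644, 334, 512, 563 and 279 CPM in vehicle mice and at 269.9, 436, 419, 816 and 553 CPM in MMP9 mice. The mitochondrial creatine kinase Ckmt2 had 129 ± 54.0 and 129 ± 44.2 CPM (SD, n = 5). All 3 genes were low in vehicle mice 2 and 5 and MMP9 mouse 1, and the groups overlapped.

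Over the 29 fast and shared genes a few mice held most of the highest and lowest values, which was seen after the values were known. The highest value of all 10 lay in vehicle mouse 1 for 10 genes, in MMP9 mouse 4 for 9, in vehicle mouse 4 for 8 and in MMP9 mouse 5 for 2. The lowest lay in vehicle mouse 5 for 12 genes, MMP9 mouse 1 for 7, vehicle mouse 2 for 6 and MMP9 mice 3 and 4 for 2 each. The upper 2 of the vehicle group were vehicle mice 1 and 4 in 32 of 42 tested members (76.2%), against 14.5% of all tested genes. The same held for 54 of 80 tested genes on lists of further muscle and cardiac genes (67.5%). Among these, it held for 25 of 30 on the sarcomere list (83.3%), so it is not particular to the members. The median range over mice was 2.17-fold. Together the 44 members took between 2.99% (vehicle mouse 2) and 5.79% (MMP9 mouse 5) of a library's TPM. In bulk tissue, fewer muscle fibres in a piece and less RNA per fibre cannot be told apart.

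Slow genes differed in where their low values lay. Mybpc1, Myoz2 and Mb, classed as slow, had vehicle mice 1 and 4 as their upper 2 vehicle values, as the fast genes did. Tnnc1, Tnni1, Tnnt1 and Sln, together with the developmental genes Myh3, Myh8 and Actc1, had vehicle mice 1 and 3 as their lowest 2 vehicle values, which held for 7 of 42 tested members (16.7%) and 12% of all tested genes, so the share is near the background. In Tnnc1, Tnni1, Myh3, Myh8 and Actc1, MMP9 mice 2 and 5 were also the upper 2 of their group, which makes both features present in 11.9% of tested members and 2.16% of all tested genes. These 5 genes were put together after their values were seen, and their median range over mice was 8.02-fold.

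**Figure D3:**
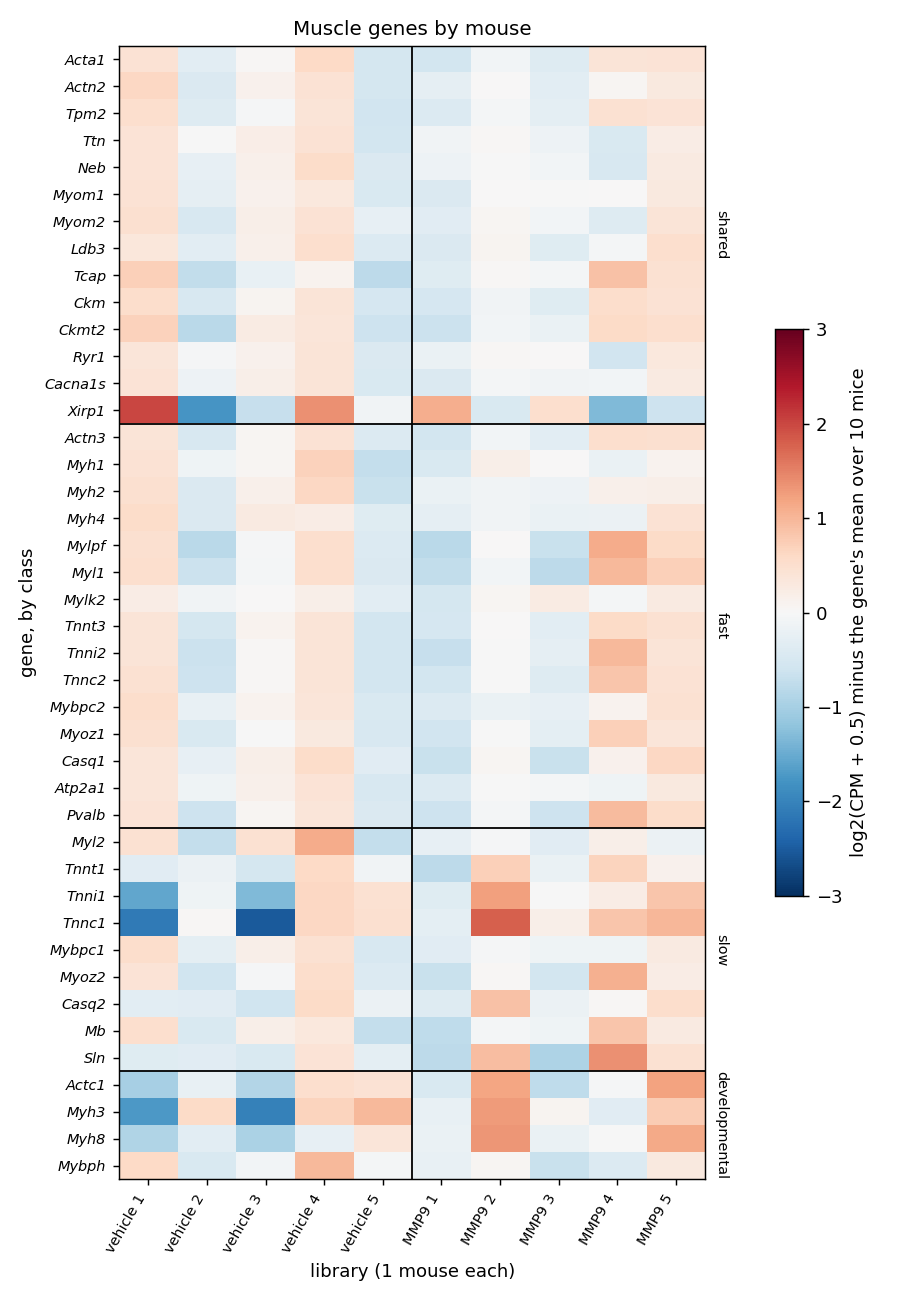
Levels of the 42 tested members in 10 mice, as log2(CPM + 0.5) minus the gene's mean over all mice, with genes in rows by class, mice in columns and a line between the vehicle and MMP9 groups. Fast and shared genes lie above their mean in vehicle 1 and 4 and, except Xirp1 (-0.62), in MMP9 5, while Tnnc1, Tnni1, Myh3, Myh8 and Actc1 are low in vehicle 1 and 3 (Tnnc1 -2.12 and -2.52) and high in MMP9 2.

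Outside the members, 8 of 80 tested genes on lists of further muscle and cardiac genes (10%) had the first of these features, against 12% of all tested genes. Both were present in 5 of the 80 (6.25%), against 2.16% of all tested genes: Myl4, the embryonic and atrial essential light chain, Myl6b, another essential light chain, Chrng and Chrnd, the fetal and a constitutive subunit of the acetylcholine receptor, and the cardiac and embryonic troponin Tnnt2. Myl4 was at 15.4, 21.9, 11.1, 47.3 and 34.2 CPM in vehicle mice and at 24.3, 66.8, 28.8, 52.5 and 57.7 CPM in MMP9 mice. Chrng, which is replaced by Chrne after birth, was at 0.397, 2.95, 0.658, 5.06 and 4.06 CPM in vehicle mice and at 1.14, 3.94, 1.75, 1.59 and 2.84 CPM in MMP9 mice, a range of 12.7-fold.

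Cardiac markers summed to 34.9 to 110.1 TPM in vehicle and 71.2 to 169.3 TPM in MMP9 over 8 genes, but Myh6, Myl7 and Ryr2 were under 0.5 TPM in all 10 libraries. Most of that sum came from Myl4 and Tnnt2. Smooth muscle markers summed to 298.1 to 343.9 and 220.0 to 446.0 TPM, and satellite cell markers to 156.6 to 228.9 and 125.3 to 286.0 TPM. Most of the latter sum came from Sdc4, which is not specific to these cells, with means of 162 TPM in both groups, while Pax7 had 0.422 and 0.324 TPM. The part of which muscle was caught in a piece was not tested.

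Ratios of paralogs within a library compare isoforms without the total amount of muscle. For 13 pairs the log2 ratio of TPM + 0.1 was compared between groups by an exact two-sided permutation test over all splits of the 10 mice into 5 and 5, and 0 passed after Benjamini-Hochberg adjustment over the 13. The smallest p this test can give is 0.00794, which a single pair would carry to an adjusted 0.103, so no pair could pass alone. All 13 pairs overlapped between groups.

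The pair with the smallest p was Casq2 over Casq1. Its log2 ratio was -5.53, -4.96, -5.66, -4.83 and -4.70 in vehicle mice and -4.57, -4.02, -4.38, -4.94 and -4.95 in MMP9 mice. MMP9 mice 1, 2 and 3 lay above every vehicle mouse, and MMP9 mice 4 and 5 lay below 2 of them. The mean difference was 0.56 (exact permutation p = 0.0635, adjusted 0.58). Casq2 came to between 1.98% and 6.17% of Casq1 in TPM + 0.1.

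Tnnc1 over Tnnc2 had the widest range, with log2 ratios of -12.02, -8.02, -12.53, -8.39 and -7.59 in vehicle mice and -8.44, -6.74, -8.10, -8.59 and -8.02 in MMP9 mice. Ratios in vehicle mice 1 and 3 lay more than 3 log2 units below the rest, and the other 8 mice were mixed between groups. The mean difference of 1.73 had an exact permutation p of 0.246 and an adjusted value of 0.58. Tnnc1 made up between 0.0170% and 0.934% of Tnnc2.

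Myh3 over Myh4 and Tnni1 over Tnni2 had the same 2 mice lowest, at -10.10 and -10.19 for the myosins and -9.68 and -9.08 for the troponins. Their differences were 0.76 (exact permutation p = 0.405) and 0.67 (exact permutation p = 0.357). Myh8 over Myh4 differed by 0.95 (exact permutation p = 0.119, adjusted 0.58), and Actc1 over Acta1 by 0.55 (exact permutation p = 0.349). Each adjusted value was at least 0.58.

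The ratios that varied least over mice were those of Mybpc1, Myoz2 and Myh2. Mybpc1 came to between 85.4% and 113% of Mybpc2 in every mouse, and Myoz2 to between 10.2% and 15.8% of Myoz1. Myh2 over Myh4 stayed between 6.16% and 9.95%. Their group differences were -0.03, -0.05 and 0.05 on the log2 scale. More variable, Tnnt1 came to 0.218% to 0.619% of Tnnt3, Myl2 to 0.0787% to 0.256% of Mylpf, and Myl3 and Myh7 to at most 0.0255% of Myl1 and 0.0463% of Myh4, the last 2 set in part by the pseudocount.

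**Figure D4:**
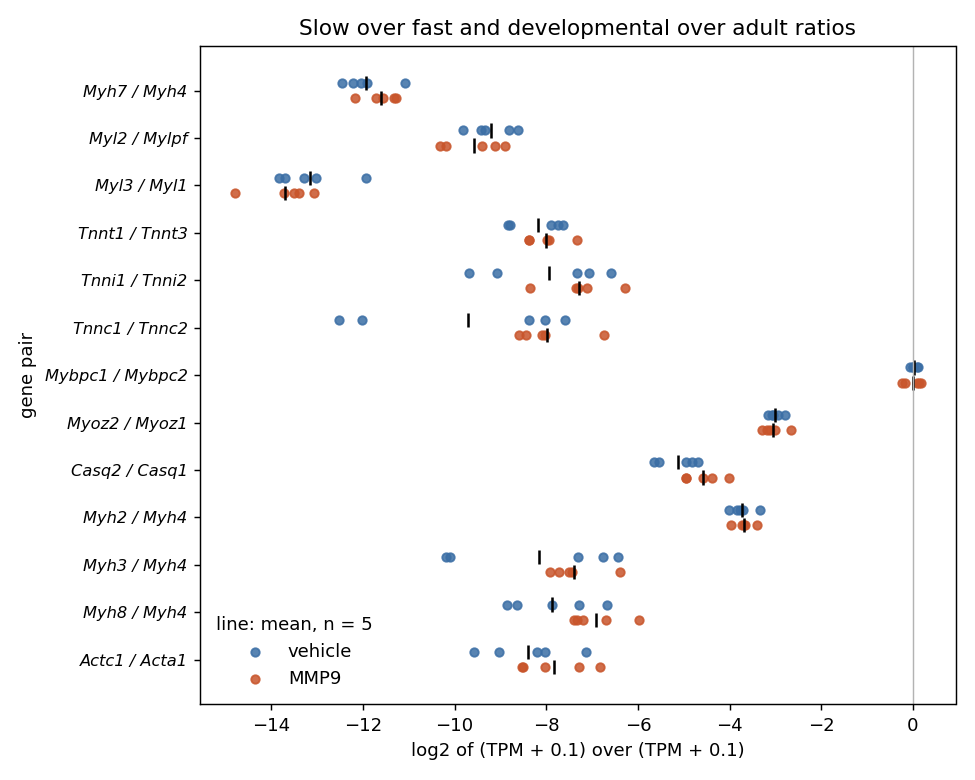
Log2 ratios of TPM + 0.1 for 13 pairs of muscle paralogs, with 1 point per mouse in the vehicle and MMP9 groups and a black line at each group mean. Groups overlap in all 13, Mybpc1 over Mybpc2 lies near 0, and Tnnc1 over Tnnc2 reaches down to -12.53 in vehicle mouse 3.

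Transcript length moved most with the values of 1 library, and less with those of another. For each library, the log2 difference from the gene's median over all 10 libraries was correlated with transcript length over 14780 genes. The Spearman coefficient was -0.622 in MMP9 mouse 4. In MMP9 mouse 1 it was 0.347, in the other direction, with medians over all genes of -0.26 under 1500 bases and 0.18 over 5000 bases. Each remaining library gave between -0.024 and 0.080. Genes of one library share its preparation and are not independent, so no p is given. Members in MMP9 mouse 4 were also set against the mean of the other MMP9 mice. The 18 tested members under 1500 bases had a median log2 difference of 0.85, and the 13 over 5000 bases of -0.40. Over all genes with a length the same medians were 0.61 for 2181 short and -0.40 for 3028 long genes, so the shift is not particular to members. Mylpf, of 766 bases, was at 4039.8 CPM in MMP9 mouse 4 and at 1065, 1864, 1174 and 2752 CPM in MMP9 mice 1, 2, 3 and 5. Ryr1, of 15358 bases, was at its lowest of all 10 mice there.

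The number of short members with a fold change above 0 fell without MMP9 mouse 4, while that of long members stayed the same. With all 10 mice, 16 of 18 short members had a log2 fold change above 0 (median 0.16), against 2 of 13 long ones (median -0.15). Without MMP9 mouse 4, 6 of 18 short members were above 0 (median -0.10), and 2 of 13 long ones (median -0.11). Mylpf went from 0.20 to -0.16, Myl1 from 0.14 to -0.14 and Pvalb from 0.17 to -0.12. The signs of short members that turned in this way carry no direction. Leaving out other mice moved the median of all tested members about as far. It was -0.10 without vehicle mouse 2, -0.11 without vehicle mouse 5 or MMP9 mouse 5, and -0.12 without MMP9 mouse 4. Without MMP9 mouse 1 it was 0.12.

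**Figure D5:**
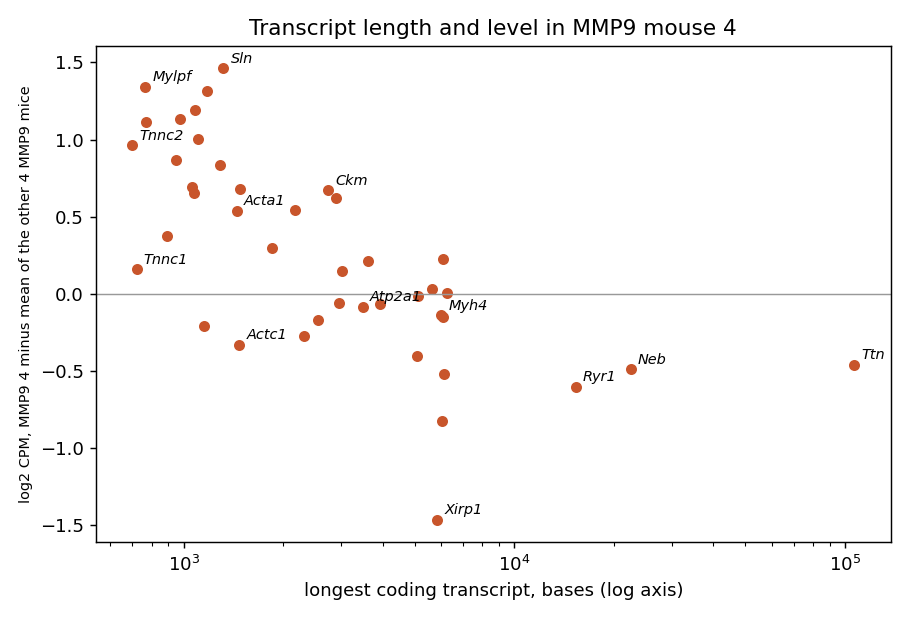
Log2 difference of MMP9 mouse 4 from the mean of the other 4 MMP9 mice against transcript length in bases on a log axis, with 1 point per tested member. Of the 18 members under 1500 bases 16 lie above 0, Mylpf at 1.34, and of the 13 over 5000 bases 3 do, with Ryr1 at -0.60.

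Further muscle genes, from lists outside the members, did not pass either. Of 30 tested sarcomere genes 0 were called, 7 were above 0 and the median log2 fold change was -0.16, with Myl4 at 0.82, Myom3 at -0.40 and Myh7b at 0.53 having the smallest p. Of 19 genes of excitation and calcium coupling 0 were called, 8 were above 0 and the median was -0.03. Pln, which encodes phospholamban, an inhibitor of the slow and cardiac calcium pump, had a log2 fold change of 0.81 (standard error 0.35). It was at 1.59, 1.91, 1.54, 2.53 and 1.05 CPM in vehicle mice and at 4.25, 2.73, 1.10, 4.09 and 3.01 CPM in MMP9 mice, of which 4 lay above every vehicle mouse. That pump, Atp2a2, also widespread outside muscle, had -0.24, and the channel subunit Cacnb1 had -0.22.

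Of 18 genes of muscle energy supply 0 were called and 12 were above 0, with a median of 0.07. Gpd1, a glycerol phosphate dehydrogenase also abundant in fat, had -0.23, the glycogen phosphatase subunit Ppp1r3a 0.20 and the respiratory subunit Cox8b 0.29. Of 10 genes of the neuromuscular junction 0 were called and 0 were above 0, with a median of -0.22. Musk, the kinase that clusters acetylcholine receptors, was at 6.01, 3.00, 4.33, 4.79 and 3.56 CPM in vehicle mice and at 2.95, 3.79, 2.95, 1.94 and 3.66 CPM in MMP9 mice. Its groups overlapped, and its log2 fold change was -0.50 (standard error 0.23). Chrna1, a receptor subunit, had -0.29, and Colq, which anchors the synaptic esterase, had -0.35. In all of these genes the edgeR adjusted p was 0.981 or above.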

How the data were processed

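Cheek skin mRNA of 5 vehicle and 5 MMP9 mice was sequenced as single-end reads of 50 bases after oligo(dT) selection, per the labels' protocols. The authors deposited an estimated count of reads per gene, of which 60.8% are not exactly whole (no tolerance was allowed), per the file headers. TPM and FPKM, scaled by transcript length and library total by the authors, were deposited beside them, and FPKM was not used. The submitters' processing notes name HISAT and GRCm39. The sources used here give no quantification program, strand setting or read filter.

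The test, on rounded counts, was that of edgeR 4.0.16 (R 4.3.3): TMM factors, filterByExpr (15250 of 18994 genes kept), a quasi-likelihood fit with treatment as the only term, and Benjamini-Hochberg adjustment over all 15250 genes at 0.05. The standard error was derived from the F statistic, and intervals are at the 95% level. Levels are CPM scaled by TMM factors. TPM serves for comparison between genes and for ratios, with a pseudocount of 0.1. The test was checked on simulated data. Transcript lengths and shared 50-base stretches come from the reference transcripts, and promoters from RefSeq (GRCm38.p6), a build other than the authors', from which no other coordinates are taken.

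Library pairs differed by a chi-square per gene of at least 17.8, so none was a duplicate. Whether mice shared a litter or a day of treatment is not labelled. The members, lists and gene pairs were chosen with earlier results of these data known. Values in every mouse are given for the heavy chains and other central genes on a list set with the tests and for the 5 members with the smallest p. Up to 3 genes of each list of other muscle genes, those with the smallest p, are named, and marker lists are given as sums. Xirp1, Mylpf, Flnc, Klhl40, Chrng and other genes named for their pattern over mice lie outside that rule, their values having been seen first. Alternatives were RLE and upper-quartile factors, TMM without tissue genes, other filters, DESeq2 1.42.0, limma 3.58.1 (voom and on log2 TPM), a block by mouse number and leaving out each mouse.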

Additional observations from a re-analysis of the deposited data

Results flagged for a closer look

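In groups of 5 mice, 1 value lay far from the other 4 by Dixon's criterion in 6 of the 126 groups of values examined, and chance flags about 1 in 20, or 6.3 of 126. In vehicle mouse 4, Sln stood at 8.64 CPM against 4.499 to 5.11 CPM in the other vehicle mice, Casq2 at 29.6 CPM against 12.8 to 17.5 CPM, and Tnnt1 at 15.7 CPM against 6.91 to 9.37 CPM. The slow light chain gene Myl3 was at 0.771 CPM in the same mouse, against 0.0546 to 0.170 CPM. These 4 flags thus lie in slow genes of 1 mouse, which was also among the highest for fast genes. In MMP9 mouse 5, Myh4 was at 2522 CPM against 1539 to 1735 CPM in the other MMP9 mice. The share of Myh7 in heavy chain TPM was 0.0150% in vehicle mouse 5 and 0% to 0.00382% in the other vehicle mice, values that rest on at most 6 counts.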

How the results depend on the processing

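Under all 20 alternatives 0 members were called, and the lowest adjusted p of a member in any of them was 0.887. The number of genes called over the whole table was 0 except with DESeq2, which called 1 gene, not a member. The median log2 fold change of the members ran from -0.12 to 0.12 and changed sign. Of 42 tested members, 20 changed sign under at least 1 alternative and 22 did not. Myoz2 moved by more than the standard error of its main log2 fold change (0.34), from 0.11 to -0.25 without MMP9 replicate 4. Among the 13 ratios 0 were called under 14 alternatives, with a lowest adjusted p of 0.258, and 3 changed sign. With the block by mouse number the ratio test had 32 sign flips, too few for any pair to pass. In the other alternatives no pair could pass alone, so 0 calls say little about the ratios. With the mouse number as a replicate block, 0 genes were called, with 554 at an unadjusted p under 0.05, where the fit without it had 487. Members at an unadjusted p under 0.05 went from 1 to 3, Myh8, Tnnc1 and Tnni1, each with an edgeR adjusted p of 0.996. Correlations between mice with the same number were -0.204, 0.018, 0.449, 0.119 and 0.231. Vehicle mice 3 and 5 correlated most with the MMP9 mouse of the same number, and vehicle mice 1, 2 and 4 with another. Whether the numbers pair the mice cannot be told from these values. Depth limits Myh7 and Myl3, with at most 6 and 14 counts in a library.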
